A study of Mus musculus with 12 samples.

Results

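Expression in the cortex of mice without progranulin was compared with that of wild-type mice, gene by gene, in 8 of the 12 libraries of the series. The 4 knockout libraries came from Grn-/- mice (KO) and the 4 wild-type libraries from Grn+/+ mice (WT). Of the 27179 genes in the count table, 15298 passed the filter on low counts and were tested. WT replicate 1 (WT1) was labelled female and 287 days old, and WT2, WT3 and WT4 were labelled male and 375 days old. KO1 was labelled male and 308 days old, KO2 male and 282 days old, and KO3 and KO4 female and 282 days old. The other 4 libraries were Grn-/- mice with the allele labelled GRNmEx5, and they are not compared here, but they entered the same model and so bear on the estimate of the spread, the term for labelled sex and the centring of list levels. With WT and KO libraries alone in the model 3 genes passed the test described below: Grn, Wdfy1 and Pappa2. The labels name neither the exons removed from Grn nor the strain, and whether the libraries of a group are different animals is not said there. The p-values therefore reflect library-to-library spread, which may be partly technical. Age, labelled sex and library coincide within WT and cannot be told apart there. WT1 is close in age to the KO mice and is therefore shown on its own beside the 3 WT libraries of 375 days.

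Progranulin is a secreted glycoprotein that cells take up through receptors such as sortilin and carry to the lysosome, where proteases cut it into granulin peptides. Loss of a human copy of the gene causes frontotemporal dementia, and loss of both copies causes a lysosomal storage disease. Brains without progranulin are known for changes in lysosomes, microglia and astrocytes, which is why the groups of genes described here start with the lysosome.

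Library totals were 16854884 to 20782195 counts. The transcripts of the sex chromosomes ran against the labelled sex in all 8 libraries: Xist, the RNA of the inactive X chromosome, had 3 to 19 counts in the libraries labelled female and 9390 to 12900 in those labelled male. The first principal component of all 12 libraries, with 28.7% of the variance, set WT2, WT3 and WT4 (25.6 to 35.4) apart from WT1 (-15.7) and the KO libraries (-11.1 to -3.90). Transcripts of striatal projection neurons moved with that split. Ppp1r1b, which encodes the striatal phosphoprotein DARPP-32, was at 63.3 CPM (counts per library scaled to a common library size) in WT1, at 155, 253 and 444 CPM in WT2, WT3 and WT4, and at 68.1 to 116 CPM in KO. Of 20 striatal markers 19 were tested and their level (the mean over members of log2 CPM, each gene centred on its mean over the 12 libraries) was -0.70 in WT1, 0.66 to 2.34 in the other WT libraries and -0.74 to 0.13 in KO. Ttr, a choroid plexus transcript, was at 598 CPM in WT4 and 1839 CPM in KO3 and at no more than 42.7 CPM in the other 6 libraries. With the striatal level as a term in the model, 1 gene passed the test, Grn, and without the libraries high in choroid plexus transcripts 2 genes did, Grn and Wdfy1.

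Grn was lower in every KO library. It lies on chromosome 11 at 102430322 to 102436809 (mm10, forward strand, the whole gene as annotated). Its expression was 57.2, 59.9, 57.6 and 57.0 CPM in WT1 to WT4 and 12.9, 10.8, 13.4 and 13.97 CPM in KO1 to KO4, so the groups were far apart and WT1 sat among the other WT libraries. The fall was 2.20 on the log2 scale (SE 0.089; adjusted p = 1.31e-07, edgeR quasi-likelihood test), and it was 2.11 against WT1 alone and 2.25 against the WT libraries of 375 days. Grn passed the test in all 25 settings tried for this comparison, and no other of the 73 called genes did.

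Beyond Grn the differences were mostly small. The median size of a log2 fold change between KO and WT was 0.10, about the size of its median standard error of 0.089. The quartiles were -0.10 and 0.10, and the lowest and highest 5% of genes lay beyond -0.40 and 0.32. A difference of more than 1.5-fold was fitted for 592 genes (3.87%), 238 higher and 354 lower, and of more than 2-fold for 163 genes, 153 of which did not pass the test. For 11624 genes (76.0%) the 95% interval of the fold change lay within 1.5-fold in both directions. In edgeR's test 73 genes passed an adjusted p of 0.05, or 0.477% of those tested: 22 rose (0.144%) and 51 fell (0.333%). The called genes changed by small amounts, with 58 of the 73 under 1.5-fold, a median of 0.41 among those that rose and -0.37 among those that fell.

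The count of called genes depended on single libraries. Left out in turn, WT1 gave 1635 calls, WT2 1, WT3 147, WT4 1, KO1 1, KO2 3, KO3 6 and KO4 89. In each of those 8 fits all 73 genes kept the sign of their fold change. They were chosen on all 8 libraries, nearly all without overlap of KO and WT, so that outcome was all but fixed beforehand. At an unadjusted p of 0.05, 2734 genes passed (17.9%), 1223 higher and 1511 lower. Taken library by library, the 4 KO libraries lay wholly above the 4 WT libraries for 656 genes (4.29%) and wholly below them for 737 (4.82%). Together these are 1393 genes (9.11%), and for the remaining genes the groups overlapped.

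**Figure D1:**
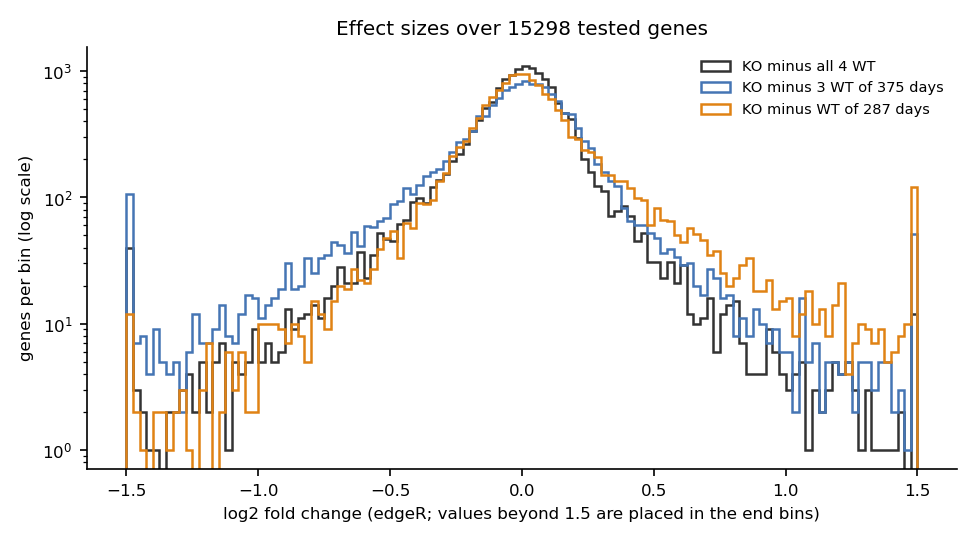
Number of tested genes (log scale) by log2 fold change from edgeR, with KO set against all 4 WT libraries, against the 3 of 375 days and against the 1 of 287 days. Values beyond 1.5 are placed in the end bins. The black distribution is the narrowest, the blue one has the heavier lower side and the orange one the heavier upper side.

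Splitting WT by age changed which side of the distribution was heavy. Against the 3 libraries of 375 days 1668 genes passed the test (10.9%), 763 higher in KO (4.99%) and 905 lower (5.92%). Against WT1 alone 2 genes passed (0.0131%), both lower: Grn and Tnr, which encodes tenascin-R of the neuronal extracellular matrix. Tnr was at 63.6 CPM in WT1 but at 34.5, 32.8 and 35.7 CPM in WT2 to WT4 and at 36.5 to 42.1 CPM in KO, so that WT1 stood alone. In that contrast the lone library was assumed to vary like the other groups. Genes more than 1.5-fold apart numbered 1179 against the WT libraries of 375 days, 402 higher and 777 lower, and 1109 against WT1, 831 higher and 278 lower. The KO libraries are shared by both contrasts. Between the WT libraries of 375 and 287 days themselves 327 genes passed (2.14%).

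WT1 lay nearer to KO than to the other WT libraries at many of the genes called against the WT of 375 days. On a scale where the mean of WT2, WT3 and WT4 is 0 and the KO mean is 1, the median position of WT1 over the 1668 genes was 0.93, with quartiles at 0.64 and 1.22. WT1 was on the KO side of the midpoint for 1384 of them and on the side of the older WT libraries for 284 (17.0%). Over all tested genes it was on the side of the older WT libraries in 38.3%. WT1 took no part in choosing the 1668 genes, but the WT and KO means that set the scale did. Grn sat at 0.011 on that scale, Wdfy1 at 0.17 and Ctss at -0.18, close to the older WT libraries, whereas Gfap sat at 0.59 and Htr2a at 0.66.

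**Figure D2:**
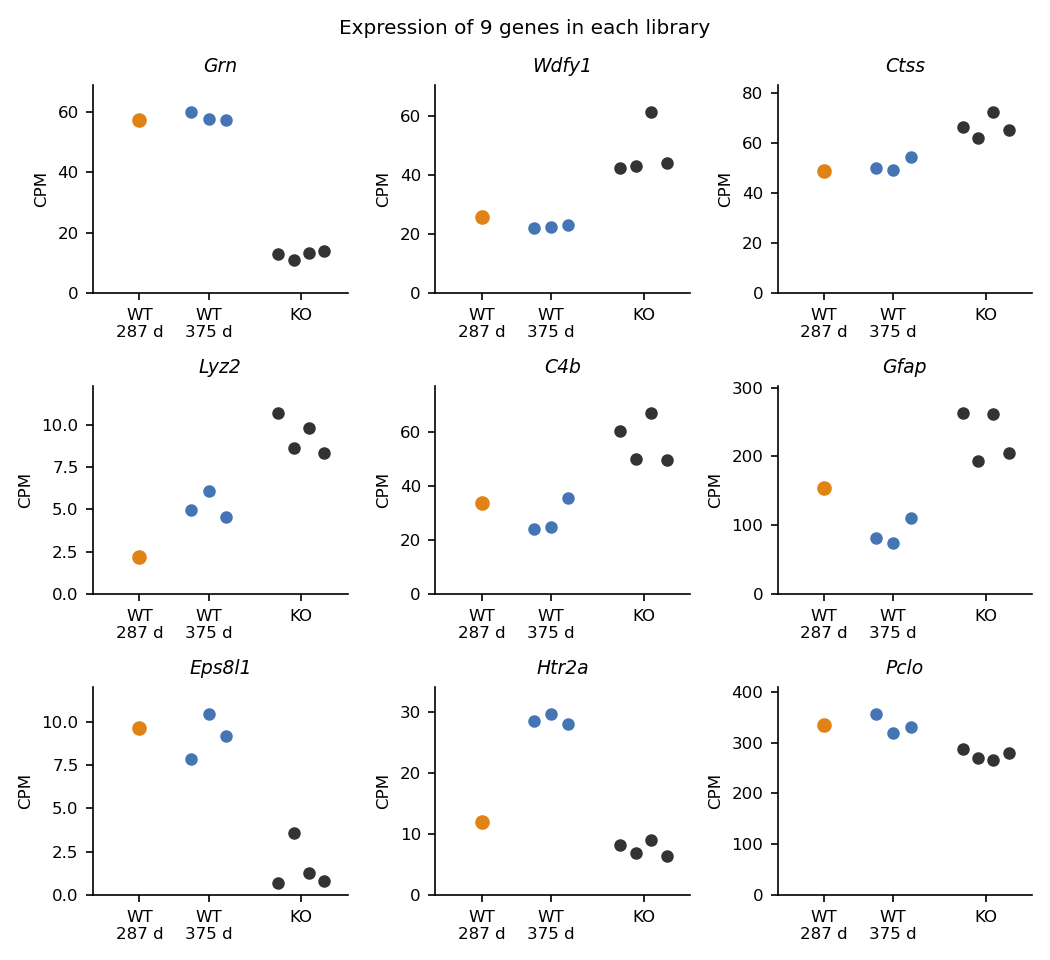
CPM of 9 genes in each library, with WT1 (orange, 287 days), WT2 to WT4 (blue, 375 days) and KO1 to KO4 (black). WT1 stays with the older WT libraries for Grn, Wdfy1, Ctss, Eps8l1 and Pclo, and lies between them and KO for Gfap and Htr2a.

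Among lysosomal genes the proteases stood above the rest. Sequences come first, because lysosomal genes are known for a shared promoter element, the CLEAR motif bound by the transcription factor TFEB. The letters TCACGTGA, which read the same on both strands, were searched between 250 bases before and 50 after each annotated start in RefSeq promoters of GRCm38.p6, the assembly also called mm10. They were present in 239 of the 11792 tested genes with a promoter entry (2.03%), in 14 of 77 genes of the 5 lysosomal lists (18.2%), in 3 of 15 proteases and in 5 of 19 membrane proteins. The motif is a description of these windows and says nothing of binding. The windows of the 3 proteases are shown 5′ to 3′ on the gene's strand with the motif in capitals.
Ctsd, chr7:142387883-142387962 (reverse strand, motif starting 99 bases before the start): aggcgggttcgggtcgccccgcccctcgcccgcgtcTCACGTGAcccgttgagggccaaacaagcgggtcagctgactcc
Ctsa, chr2:164833724-164833772 (forward strand, motif starting 13 bases before the start): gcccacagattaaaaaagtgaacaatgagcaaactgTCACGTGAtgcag
Dpp7, chr2:25356363-25356442 (reverse strand, motif starting 74 bases before the start): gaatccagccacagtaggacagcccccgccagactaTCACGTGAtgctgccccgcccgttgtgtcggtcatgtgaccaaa

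Of 18 lysosomal proteases, all tested, 1 rose, against 0.144% of all genes, and none fell. Their median log2 fold change was 0.16, against 0.0047 over all tested genes, and 16 of 18 were above 0 (51.3% of all genes were). For 6 the KO libraries lay wholly above WT, which was so for 4.29% of all genes. Ctss, the cysteine protease cathepsin S of microglia, was at 49.0, 50.3, 49.2 and 54.7 CPM in WT1 to WT4 and at 66.6, 62.0, 72.7 and 65.2 CPM in KO1 to KO4. Every KO library was above every WT library, and the rise was 0.39 (SE 0.06; adjusted p = 0.0308). Ctsd, the aspartic protease that digests progranulin among other substrates, was at 271, 288, 334 and 308 CPM in WT and 343, 345, 370 and 334 CPM in KO, a difference of 0.23 (SE 0.06; adjusted p = 0.0937) with WT1 the lowest library and WT3 level with KO4. Ctsb, a cysteine cathepsin, differed by -0.02 (SE 0.07) and its groups overlapped. As a list the proteases were at -0.21 in WT1, at -0.079 to -0.030 in the older WT libraries and at 0.0054 to 0.14 in KO. The groups did not overlap, but WT1 was the farthest from KO, and the median was 0.27 against WT1 and 0.070 against the WT of 375 days. Ctsa, the carboxypeptidase cathepsin A, differed by 0.18 and Dpp7, a dipeptidyl peptidase, by 0.16, with adjusted p-values of 0.0848 and 0.155, so none of the proteases with a printed promoter passed the test.

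The other parts of the lysosome moved less. None of 20 membrane proteins passed the test, with a median of 0.061 and 18 above 0. That median was 0.14 against WT1, 0.022 against the WT of 375 days and 0.024 without WT1. Cd68, a membrane glycoprotein of macrophage lysosomes, was the highest of them at 0.58 (SE 0.13; adjusted p = 0.0658), from 5.23 to 7.22 CPM in WT and 8.44 to 10.8 CPM in KO. Lamp1, the main structural membrane protein, differed by 0.092 (SE 0.05) with overlapping groups. Slc36a1, a lysosomal amino acid exporter, was the lowest at -0.26 (adjusted p = 0.103), with all KO libraries (90.9 to 114 CPM) below all WT libraries (120 to 141 CPM). None of 23 glycosidases and sulfatases passed, with a median of 0.067: Hexa, which encodes a lysosomal hexosaminidase subunit, differed by 0.11 and overlapped. None of 18 lipid enzymes and carriers passed, with a median of 0.031. Psap, the saposin precursor that binds progranulin, differed by 0.0059, with 1743 to 1970 CPM in WT and 1840 to 1927 CPM in KO. The 18 subunits of the proton pump that acidifies the lysosome had a median of -0.012 with 8 above 0. Both the glycosidase and the lipid lists were nearer to 0 against the WT of 375 days (0.0061 and -0.021) than against WT1 (0.19 and 0.12).

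Receptors and partners of progranulin did not pass the test either. Of 15 listed, 13 were tested, with a median of -0.077. Sort1, the sortilin receptor that clears progranulin from outside the cell, was at 678 to 784 CPM in WT and 586 to 684 CPM in KO, a difference of -0.16 (SE 0.07; adjusted p = 0.239). Gpnmb, a membrane glycoprotein of lipid-laden phagocytes, was at 1.83 to 4.17 CPM in WT and 3.13 to 5.15 CPM in KO, a difference of 0.50 whose groups overlapped. Tmem106b, a lysosomal membrane protein in which common variants alter the risk of progranulin-deficient dementia, differed by -0.17 (adjusted p = 0.181).

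In the endosome and autophagy lists individual genes rose or fell without the list. Wdfy1, a FYVE-domain protein of early endosomes, was at 25.7, 22.0, 22.5 and 23.2 CPM in WT1 to WT4 and at 42.6, 43.2, 61.6 and 44.3 CPM in KO1 to KO4. The groups were far apart and KO3 stood above the other KO libraries. Its rise was 0.96 (SE 0.13; adjusted p = 0.0272), 1.07 against WT1 and 0.90 against the WT of 375 days, and it passed in 16 of 25 settings, the most after Grn. The other 27 genes of the endosomal sorting list did not pass, and the list's median was -0.011. Outside the list Snx13, a sorting nexin, fell by 0.28 (SE 0.05; adjusted p = 0.0485), and Sorl1, described further on, also fell. Vps35, a subunit of the retromer complex that recycles receptors from endosomes, was at 182 to 196 CPM in WT and 164 to 177 CPM in KO, a difference of -0.15 (adjusted p = 0.0821). Of 26 autophagy genes Gabarap, which is coupled to the membrane of autophagosomes, rose by 0.23 (SE 0.04; adjusted p = 0.0490), and Rb1cc1, the scaffold of the kinase complex that starts autophagy, fell by 0.24 (SE 0.04; adjusted p = 0.0485). Sqstm1, the autophagy receptor p62, was at 450 to 505 CPM in WT and 464 to 493 CPM in KO, a difference of 0.03.

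Of the genes listed for activated microglia 4 rose, and of those listed for resting microglia none passed the test, a difference between the lists that was not itself tested. These are levels in whole cortex, and other cells also express some of these genes, such as Fth1. The disease-associated microglia list holds genes that microglia raise around damage. Of its 39 genes 32 were tested, and Cst7, Clec7a, Lgals3 and 4 others were below the filter. In the tested genes 4 rose and none fell, against 0.144% of all genes that rose. The median was 0.22 with 27 of 32 above 0, and for 11 the KO libraries lay wholly above WT, which was so for 4.29% of all genes. Because the filter asks for expression in 4 libraries, genes seen in only a few libraries are missing from these counts. The 4 genes that rose were Ctss, Lyz2, Tyrobp and Fth1. Lyz2, lysozyme of phagocytes, was at 2.20 CPM in WT1, at 4.95, 6.08 and 4.54 CPM in WT2 to WT4 and at 10.7, 8.65, 9.81 and 8.32 CPM in KO1 to KO4. WT1 was the lowest of all, so the rise of 1.19 (SE 0.22; adjusted p = 0.0470) was 2.03 against WT1 and 0.90 against the older WT libraries. Lyz2 has a close copy, Lyz1, and reads may have been split between them.

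Tyrobp, the signalling adaptor of the receptor TREM2, was at 6.16 to 9.43 CPM in WT and 10.6 to 11.8 CPM in KO and rose by 0.57 (SE 0.11; adjusted p = 0.0485). Trem2 itself was at 7.79 to 10.3 CPM in WT and 11.3 to 12.9 CPM in KO, a difference of 0.41 with no overlap that missed the threshold (adjusted p = 0.0848). Fth1, the heavy chain of the iron store ferritin, rose by 0.27 (SE 0.04; adjusted p = 0.0272), from 1344 to 1447 CPM in WT to 1571 to 1707 CPM in KO. It has many processed copies in the genome. Ftl1, the ferritin light chain, was at 104 to 109 CPM in WT and 115 to 129 CPM in KO, a difference of 0.22 (adjusted p = 0.0606). The resting microglia genes P2ry12, a purinergic receptor, and Tmem119 differed by 0.049 and 0.056 with overlapping groups, and none of the 27 genes of that list passed. Its median was -0.023 with 12 above 0, but 0.15 with 21 above 0 against WT1 and -0.099 with 11 above 0 against the WT of 375 days. For the disease-associated microglia list the medians were 0.30 with 26 above 0 against WT1 and 0.17 with 25 above 0 against the WT of 375 days. In bulk tissue a change in the number of cells of a type and a change in RNA per cell cannot be told apart. Of 15 lymphocyte markers 13, Cd3e among them, were below the filter, and none of the 7 tested border-associated macrophage markers of 12 passed the test. Their median was -0.050 with 3 above 0, 0.19 against WT1 with 4 above 0 and -0.16 against the WT of 375 days, and the groups overlapped in level. Mrc1, the mannose receptor, was at 2.48 to 4.496 CPM in WT and 1.84 to 2.26 CPM in KO, a difference of -0.56 (adjusted p = 0.366). The part of any of these cell types in the rises was not tested.

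Complement was led by C4b, a component of the classical pathway. It was at 33.8, 24.0, 24.95 and 35.7 CPM in WT1 to WT4 and at 60.5, 50.2, 67.3 and 49.6 CPM in KO1 to KO4, with no overlap and a rise of 0.94 (SE 0.15; adjusted p = 0.0317). Its near-identical neighbour C4a may share reads with it, and it had 2.37 to 4.40 CPM in WT and 3.05 to 5.62 CPM in KO. C1qa and C1qb, chains of the recognition molecule C1q, differed by 0.29 and 0.27 with adjusted p-values of 0.0520 and 0.0913, and for C1qa no KO library overlapped WT (38.0 to 42.7 against 31.1 to 36.4 CPM). Of 19 complement genes tested 1 rose, against 0.144% of all genes, none fell, and 12 were above 0, with a median of 0.16. The complement median was 0.35 with 18 of 19 above 0 against WT1, 0.11 with 10 above 0 against the WT of 375 days, and 0.078 without KO1. The list level was -0.31 in WT1, -0.14 to 0.015 in the older WT libraries and -0.15 to 0.31 in KO, where KO3, a library high in choroid plexus transcripts, stood alone at the top.

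Interferon-stimulated and antigen presentation genes did not pass the test. The interferon-stimulated genes had a median of 0.094 with 23 of 27 above 0, but in no gene were the groups apart. Their median was 0.38 against WT1 and 0.032 against the WT of 375 days, and it was -0.043 without KO3. Ifit3, an interferon-induced protein, was at 3.73 to 5.01 CPM in WT and 4.46 to 8.98 CPM in KO. B2m, the light chain of MHC class I, was at 55.0 to 79.1 CPM in WT and 65.3 to 82.8 CPM in KO, a difference of 0.18 (SE 0.12). The antigen presentation median was 0.20 against WT1 and 0.0039 against the WT of 375 days.

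Of the reactive astrocyte genes Gfap rose and the other 22 tested did not pass the test. Gfap, the intermediate filament of astrocytes, was at 154 CPM in WT1, at 81.7, 74.8 and 110 CPM in WT2 to WT4 and at 264, 193, 262 and 205 CPM in KO1 to KO4. The groups did not overlap, but WT1 lay between the older WT libraries and KO, and the rise of 1.11 (SE 0.20; adjusted p = 0.0429) was 0.52 against WT1 and 1.45 against the WT of 375 days. Vim, the other intermediate filament, was at 30.3 to 33.4 CPM in WT and 35.1 to 45.0 CPM in KO, with no overlap (difference 0.23; adjusted p = 0.379). Of 23 reactive astrocyte genes 11 were above 0 and the median was -0.0087. For 3 the KO libraries lay wholly above WT, which was so for 4.29% of all genes. The median was 0.061 with 15 above 0 against WT1 and -0.11 with 11 above 0 against the WT of 375 days. Gfap lies within 10 Mb of Grn, as described further on.

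The myelin genes lay above 0 without a single call. Of 31 genes of compact myelin and mature oligodendrocytes 29 were above 0, and the median was 0.25, the second highest of the lists with 5 or more tested genes. Mbp, myelin basic protein, was at 1856, 1936, 1636 and 2228 CPM in WT1 to WT4 and at 2329, 2581, 2778 and 2293 CPM in KO1 to KO4. No library overlapped, although WT4 came close to KO4, and the difference of 0.39 (SE 0.10) missed the threshold (adjusted p = 0.0828). The median was 0.40 against WT1 and 0.18 against the WT of 375 days, and WT1 and WT3 were the low libraries of the list (-0.26 and -0.27). In list level the groups overlapped: WT4 at 0.17 was above KO1, KO2 and KO4 (0.020, 0.15 and 0.012), and KO3 was at 0.31. For 4 of the 31 genes the KO libraries lay wholly above WT, which was so for 4.29% of all genes.

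**Figure D3:**
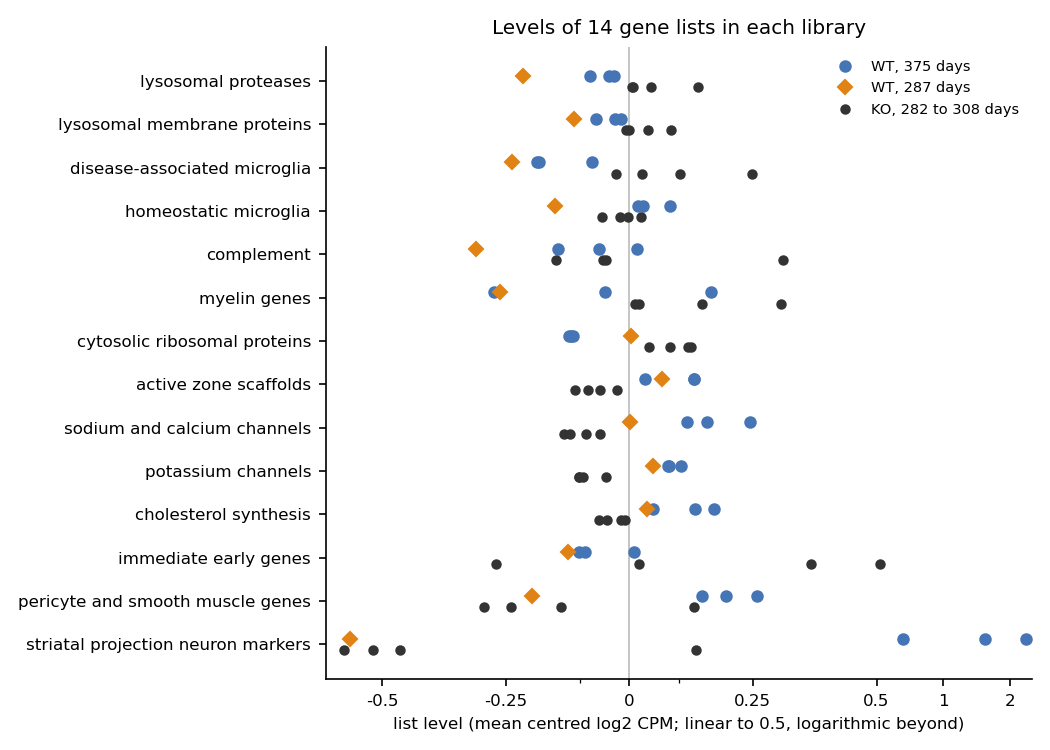
Level of 14 gene lists in each library, as mean centred log2 CPM (linear to 0.5, logarithmic beyond), for WT1 (orange), WT2 to WT4 (blue) and KO1 to KO4 (black). KO lies wholly above WT for the lysosomal proteases (0.0054 to 0.14), and wholly below it for the potassium channels (-0.10 to -0.047), while the older WT libraries stand far from WT1 and KO for the striatal markers.

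Genes of the neuronal membrane and synapse lay below 0. Pclo, which encodes the giant scaffold piccolo of the presynaptic release site, was at 335, 357, 319 and 331 CPM in WT1 to WT4 and at 288, 271, 265 and 280 CPM in KO1 to KO4. WT1 was among the other WT libraries, and Pclo fell by 0.27 (SE 0.05; adjusted p = 0.0490), by 0.31 against WT1 and by 0.25 against the WT of 375 days. Bsn, its partner bassoon, was at 760 to 830 CPM in WT and 619 to 747 CPM in KO, a difference of -0.23 (adjusted p = 0.101). Of 19 active zone scaffolds 1 fell, against 0.333% of all genes, and 4 were above 0. For 7 the KO libraries lay wholly below WT, against 4.82% of all genes. The list's median was -0.16, -0.14 against WT1 and -0.17 against the WT of 375 days. Vesicle and fusion proteins had a median of -0.069 with no call: Syn1, synapsin, was at 760 to 913 CPM in WT and 681 to 773 CPM in KO.

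Potassium, sodium and calcium channels followed the same direction. Of 36 potassium channels 1 fell, against 0.333% of all genes, and 5 were above 0 (median -0.18). Kcnj3, a G protein-gated inward rectifier, fell by 0.36 (SE 0.07; adjusted p = 0.0448), from 60.8 to 69.5 CPM in WT to 45.6 to 53.01 CPM in KO. For Kcna1, an axonal channel, WT1 at 199.99 CPM lay inside the KO range of 197 to 208 CPM and below the older WT libraries at 276 to 310 CPM. None of 27 sodium and calcium channels passed, 2 were above 0 and the median was -0.18. Scn1a, a sodium channel prominent in interneurons, was at 153 to 193 CPM in WT and 121.3 to 167 CPM in KO (difference -0.35; adjusted p = 0.133). Scn4b was the lowest of the list at -1.84: it was at 35.8 CPM in WT1, 176 to 473 CPM in the older WT libraries and 41.2 to 98.0 CPM in KO, in the order of the striatal markers. The potassium channel median was -0.053 against WT1 and -0.20 against the WT of 375 days, whereas that of the sodium and calcium channels was -0.15 and -0.17.

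Lists of receptors also had medians below 0, with some of their genes above it. Of 16 genes of GABA-A receptors and their anchoring 1 fell (0.333% of all genes did), 1 rose (0.144%) and 3 were above 0 (median -0.15). Gabrb2, the most widespread beta subunit, was at 307, 375, 342 and 366 CPM in WT1 to WT4 and at 279, 259, 271 and 261 CPM in KO1 to KO4 and fell by 0.35 (SE 0.06; adjusted p = 0.0317). The groups did not overlap, with WT1 the WT library nearest to KO. Gabra2, an alpha subunit, went the other way, at 33.0 to 40.6 CPM in WT and 43.5 to 57.9 CPM in KO (difference 0.47; adjusted p = 0.0753). The gene that rose was Gabarap. No ionotropic glutamate receptor passed (23 tested, median -0.055): Grin2b, an NMDA receptor subunit, was at 64.2 CPM in WT1, 22.2 to 25.5 CPM in the older WT libraries and 33.8 to 44.5 CPM in KO. Of 13 genes in the list of metabotropic glutamate receptors and Homer 1 was above 0 and none passed. Its median of -0.16 was -0.14 against WT1 and -0.045 against the WT of 375 days. In the latter contrast 6 of 13 were above 0 and 3 were called lower, against 5.92% of all genes. The list's median was -0.044 without WT1 and -0.063 without KO3. Of 22 postsynaptic scaffolds 3 were above 0, none passed and the median was -0.089. Cntnap2, an adhesion protein of axons and synapses, was the lowest of them, at 84.5 to 103 CPM in WT and 72.5 to 80.0 CPM in KO.

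Single genes with large falls were Eps8l1, Htr2a and Pappa2. Eps8l1, a relative of the actin regulator EPS8, was at 9.63, 7.85, 10.475 and 9.19 CPM in WT1 to WT4 and at 0.683, 3.56, 1.28 and 0.838 CPM in KO1 to KO4. KO2 was the highest KO library and still below all WT libraries, and the fall was 2.48 (SE 0.39; adjusted p = 0.0317), 2.98 against WT1 and 2.24 against the WT of 375 days. Htr2a, the serotonin 2A receptor, was at 12.0 CPM in WT1, at 28.7, 29.8 and 28.1 CPM in WT2 to WT4 and at 8.25, 6.97, 9.04 and 6.48 CPM in KO1 to KO4. WT1 lay much closer to KO than to the older WT libraries, and the fall of 1.53 (SE 0.23; adjusted p = 0.0272) was 0.65 against WT1 and 1.90 against the WT of 375 days. Pappa2, a protease that frees insulin-like growth factors, fell by 2.01 (adjusted p = 0.0272), from 2.09 CPM in WT1 and 4.15 to 5.79 CPM in the older WT libraries to 0.610 to 1.47 CPM in KO. The difference in Pappa2 was -1.37 against WT1 and -2.26 against the WT of 375 days.

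The following 10 genes also fell. Itpr1, the calcium channel of the endoplasmic reticulum, was at 731 CPM in WT1, at 837 to 976 CPM in the older WT libraries and at 592 to 652 CPM in KO and fell by 0.48. Plcb1, a phospholipase upstream of it, fell by 0.29, and Cnr1, the cannabinoid receptor CB1, fell by 0.51. Frrs1l, an assembly factor of AMPA receptors, fell by 0.46, from 205 to 246 CPM in WT to 155 to 171 CPM in KO. Sorl1, a sorting receptor of endosomes linked to Alzheimer's disease, was at 246 to 270 CPM in WT and 197 to 208 CPM in KO and fell by 0.33, with WT1 inside the WT range. The protocadherins Pcdh7 and Pcdh10 fell by 0.55 and 0.46 and the atypical cadherin Fat3 by 0.51. These 3 falls were smaller against WT1 (0.27, 0.14 and 0.18) than against the WT of 375 days (0.67, 0.60 and 0.66), and WT1 lay between the older WT libraries and KO. Slit2, a guidance cue, fell by 0.37. St6gal2, a sialyltransferase of the Golgi, fell by 1.03, from 8.36 CPM in WT1 and 12.5 to 13.9 CPM in the older WT libraries to 4.78 to 6.04 CPM in KO. Itpr1 (-0.21 against WT1 and -0.60 against the WT of 375 days) and St6gal2 (-0.58 and -1.23) also fell less against WT1. So did Plcb1 (-0.17 and -0.35), Cnr1 (-0.31 and -0.61) and Frrs1l (-0.34 and -0.51). Sorl1 (-0.40 and -0.30) and Slit2 (-0.38 and -0.36) did not. The adjusted p-values of these 10 genes in edgeR's test lay between 0.0272 and 0.0490.

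Metabolic enzymes moved in both directions. Hmgcs1, the synthase at the start of the sterol pathway, was at 358, 382, 355 and 360 CPM in WT1 to WT4 and at 307, 306, 290 and 299 CPM in KO1 to KO4 and fell by 0.27 (SE 0.04; adjusted p = 0.0272). The fall was 0.26 against WT1 and 0.27 against the WT of 375 days. Of 27 sterol synthesis genes 1 fell, against 0.333% of all genes, and 6 were above 0 (median -0.078). For 6 the KO libraries lay wholly below WT, which was so for 4.82% of all genes. Bdh1, the mitochondrial ketone body dehydrogenase, rose by 0.24 (SE 0.04; adjusted p = 0.0338), from 44.8 to 48.7 CPM in WT to 53.7 to 57.0 CPM in KO. In the insulin, Akt and mTOR list of 29 genes 2 fell, against 0.333% of all genes, and 7 were above 0. Pdpk1, the kinase that activates Akt, was at 167 to 185 CPM in WT and 134 to 146 CPM in KO and fell by 0.31 (SE 0.05; adjusted p = 0.0272). Foxo3, a transcription factor that Akt holds out of the nucleus, fell by 0.46 (SE 0.08; adjusted p = 0.0384). The difference in Foxo3 was -0.27 against WT1 and -0.55 against the WT of 375 days, and that in Pdpk1 was -0.30 and -0.32. The medians against WT1 and against the WT of 375 days were -0.070 and -0.060 for sterol synthesis and -0.095 and -0.074 for the Akt list.

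Genes outside these groups also rose. Efna1, a membrane-bound ligand of Eph receptors, was at 5.34 CPM in WT1, 3.06 to 3.94 CPM in the older WT libraries and 6.88 to 7.93 CPM in KO and rose by 0.89 (adjusted p = 0.0485). Mid1, a ubiquitin ligase of microtubules, was at 12.6 CPM in WT1, 5.49 to 6.52 CPM in the older WT libraries and 16.9 to 22.0 CPM in KO and rose by 1.24 (adjusted p = 0.0495). For both, WT1 lay between the older WT libraries and KO, and the differences were 0.49 and 0.61 against WT1 and 1.0998 and 1.59 against the WT of 375 days. Of the collagens Col19a1 fell by 0.42 (SE 0.05; adjusted p = 0.0272), from 39.2 to 41.4 CPM in WT to 27.4 to 31.9 CPM in KO, with nearly the same size against WT1 (-0.40) and the WT of 375 days (-0.42).

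Ribosomal protein genes shifted together by a small amount. All 81 cytosolic ribosomal protein genes were above 0, with a median of 0.18, and for 49 the KO libraries lay wholly above WT, which held for 4.29% of all genes. The test was passed by 3, against 0.144% of all genes that rose, among them Rps4x (0.26; adjusted p = 0.0485) and Rps9 (0.23; adjusted p = 0.0490). Rps9 was at 112 CPM in WT1, at 99.4, 106 and 106 CPM in WT2 to WT4 and at 120 to 134 CPM in KO, so WT1 stood between the others. The list level showed the same order, with 0.0043 in WT1, -0.12 to -0.11 in the older WT libraries and 0.040 to 0.13 in KO. The medians were 0.090 against WT1 and 0.22 against the WT of 375 days. Ribosomal protein genes have many processed copies, so reads may have been split between them. The 35 translation factors had a median of 0.060, and none passed. For 10 the KO libraries lay wholly above WT (4.29% of all genes) and for 2 wholly below it (4.82% of all genes). Eif1ax, an initiation factor on the X chromosome, was the lowest, at 55.1 to 61.6 CPM in WT and 46.0 to 52.9 CPM in KO (difference -0.26; adjusted p = 0.0603).

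Subunits of the mitochondrial respiratory chain and the proteasome were near 0 but mostly on its upper side. Medians were 0.078 for complex I (33 of 37 above 0), 0.056 for complexes II to IV (24 of 25), 0.068 for ATP synthase (16 of 17), 0.064 for mitochondrial ribosomal proteins (33 of 42) and 0.064 for the proteasome (28 of 31). None of these genes passed the test. Ndufa12, of complex I, was the highest there, at 43.9 to 48.4 CPM in WT and 49.5 to 56.8 CPM in KO (difference 0.20; adjusted p = 0.109). With a trend on gene length removed from each library the medians of the respiratory lists were -0.0017, -0.00086 and 0.0076.

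Immediate early genes, which neurons induce on activity, were spread among the KO libraries. The list was at -0.12 in WT1, at -0.10 to 0.010 in the older WT libraries and at 0.021, -0.27, 0.37 and 0.52 in KO1 to KO4. Fos was at 39.1 to 48.0 CPM in WT and at 44.8, 32.0, 102 and 100.45 CPM in KO1 to KO4, so KO3 and KO4 were high and KO2 was below all WT libraries. The median over 32 genes was 0.16, with none past the test, 0.37 against WT1 and -0.066 against the WT of 375 days.

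Lists of other brain regions and of vessels had wide medians, and those of the striatal, pericyte, endothelial and choroid plexus lists had opposite signs against WT1 and against the WT of 375 days. Striatal markers had a median of -1.34, -1.95 against the WT of 375 days and 0.34 against WT1. Hippocampal markers had a median of 0.70, 1.29 against the WT of 375 days and 0.056 against WT1, and none of 17 tested genes passed the test against all WT. Dsp, desmoplakin of dentate granule cells, was at 2.26 CPM in WT1, 0.501 to 1.43 CPM in the older WT libraries and 12.8, 4.09, 16.9 and 2.63 CPM in KO1 to KO4. For pericyte and smooth muscle genes the median was -0.25, -0.38 against the WT of 375 days and 0.21 against WT1, and endothelial genes -0.11, -0.24 and 0.13. Cldn5, the tight junction claudin of brain endothelium, was at 18.1 CPM in WT1, 30.7 to 35.4 CPM in the older WT libraries and 20.4 to 23.4 CPM in KO. Choroid plexus markers had a median of -0.39, -1.65 and 3.12 in the same order, and of 1.32 without WT4, and 12 of the 16 were tested. None of these lists had a call in KO against all WT. Between the WT libraries themselves 5 striatal markers were higher at 375 days and 4 hippocampal ones lower, against 2.14% of all genes in either direction. Whether the cortex samples held unequal amounts of these regions was not tested.

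**Figure D4:**
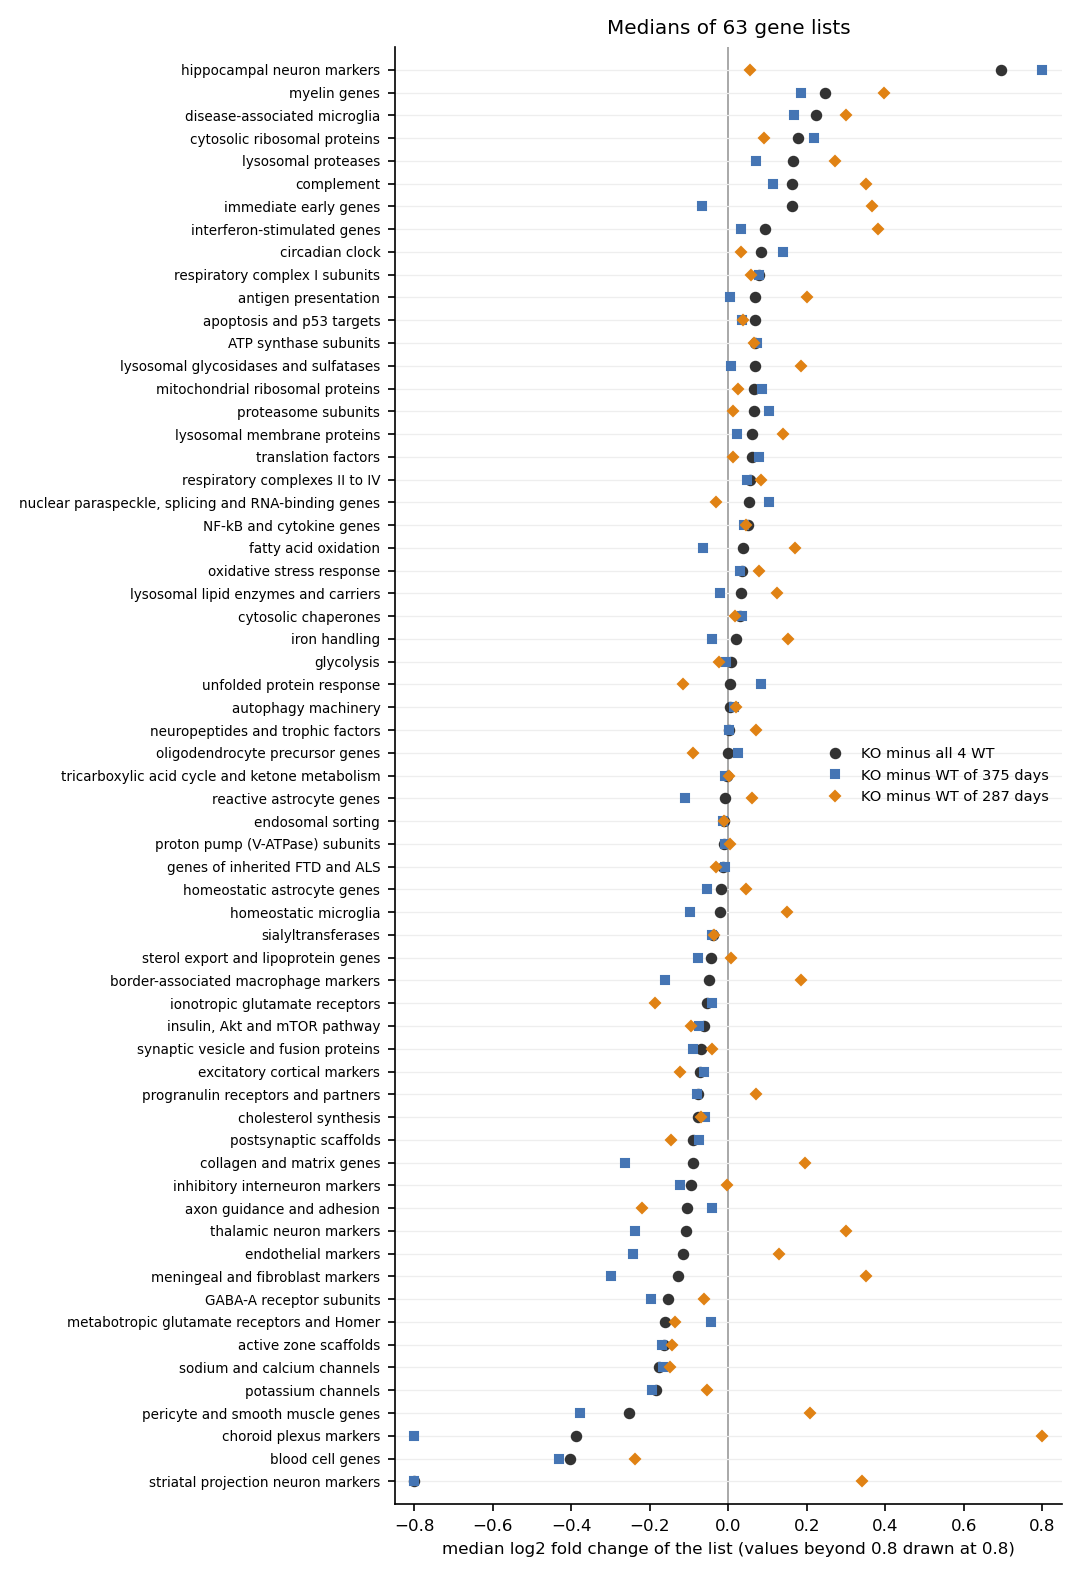
Median log2 fold change of the 63 lists with at least 5 tested genes, with KO set against all 4 WT libraries (black), the 3 of 375 days (blue) and the 1 of 287 days (orange). Values beyond 0.8 are drawn at 0.8. For active zone scaffolds the 3 symbols nearly coincide (-0.16, -0.17 and -0.14), while for pericyte and smooth muscle genes they fall on both sides of 0.

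Over all 64 lists 30 medians were above 0 and 21 were more than 0.1 from it. The KO libraries lay wholly above WT in list level for 5 lists (lysosomal proteases, lysosomal membrane proteins, disease-associated microglia, cytosolic ribosomal proteins and translation factors) and wholly below it for 8 (metabotropic glutamate receptors and Homer, active zone scaffolds, postsynaptic scaffolds, potassium channels, sodium and calcium channels, sterol synthesis, genes of inherited dementia and motor neuron disease, which include Grn itself, and the Akt list). In the remaining 51 lists the groups overlapped. The dementia and motor neuron disease list had a median of -0.014, with 15 of 32 genes above 0. Its mean level was 0.044 in WT and -0.017 in KO, and the fall of 2.20 in Grn weighs on that mean. The level without Grn was not tested. Gaps between groups could be narrow: for translation factors the highest WT level was -0.0027 (WT1) and the lowest KO level -0.0019 (KO3). Of the 73 called genes 26 belonged to a list and 47 to none.

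Some genes differed from both WT ages in the same direction with no overlap of KO and WT, and are given here as a description. Lower against both were Eps8l1 and Pappa2, described above, and Dok6, an adaptor of receptor tyrosine kinases, at 2.27 to 4.24 CPM in WT and 1.26 to 1.84 CPM in KO (-1.20 against WT1 and -1.09 against the WT of 375 days). Kcna3, a potassium channel also used by microglia and T cells, was at 4.60 to 8.63 CPM in WT and 2.25 to 4.15 CPM in KO (-0.93 and -1.05). Neither passed the test against all WT (adjusted p = 0.0520 for Dok6 and 0.0633 for Kcna3). Higher against both were Dsp, Lyz2 and Wdfy1 as above and Lct, lactase, at 1.43 to 2.17 CPM in WT and 3.13 to 9.30 CPM in KO (1.60 and 2.04; adjusted p = 0.103). Exd1, an exonuclease-like gene, was at 1.04 to 1.253 CPM in WT and 1.94 to 2.85 CPM in KO and rose by 1.02 (SE 0.19; adjusted p = 0.0490), 1.19 against WT1 and 0.95 against the WT of 375 days. Stat4, a cytokine-response transcription factor, was at 2.09 to 2.62 CPM in WT and 0.894 to 1.55 CPM in KO (-0.96 and -0.77; adjusted p = 0.0959 against all WT).

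Differences between KO and WT ran with gene length. Tested genes were divided into 5 classes of equal size by summed exon length. The median log2 fold change was 0.071 in the shortest class, then 0.034, 0.0066 and -0.023, and -0.057 in the longest, and the share of genes above 0 went from 68.7% to 32.7%. Against WT1 the shortest and longest classes were at 0.063 and -0.063, and against the WT of 375 days at 0.072 and -0.056. Median exonic length was 6010 bases for the genes that fell and 1498.5 bases for those that rose, against 2871 bases for all tested genes, and 33 of the 51 that fell lay in the longest class. By library the shortest class minus the longest was -0.073, -0.072, 0.029 and -0.11 in WT1 to WT4 and 0.070, 0.11, 0.068 and -0.00091 in KO1 to KO4. WT3 lay on the side of KO, and KO4 was level. With that trend removed from each library 11 genes passed the test, 2 higher and 9 lower, all of them among the 73. The medians were then 0.14 for lysosomal proteases, 0.19 for disease-associated microglia, 0.24 for myelin, 0.095 for cytosolic ribosomal proteins, -0.087 for active zone scaffolds, -0.13 for sodium and calcium channels and -0.012 for the Akt list. The part of the length trend in the list medians beyond these values was not tested.

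**Figure D5:**
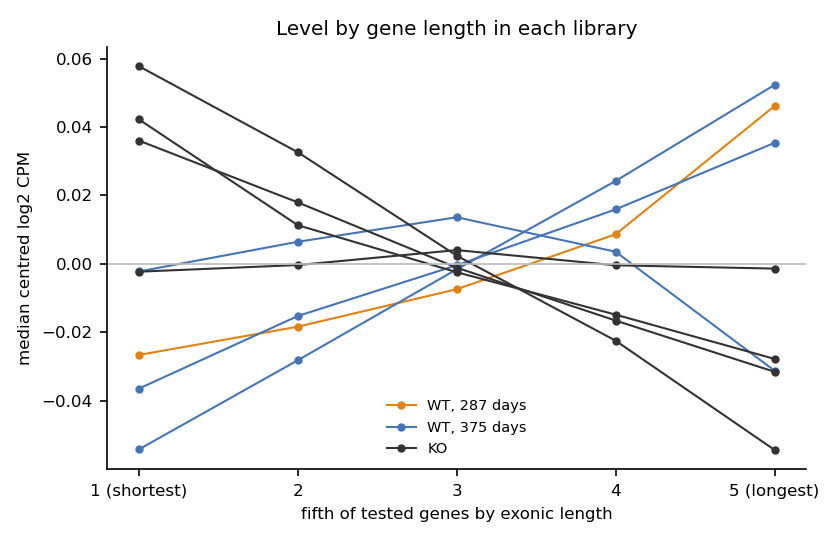
Median centred log2 CPM of the tested genes in each of 5 classes by exonic length, for WT1 (orange), WT2 to WT4 (blue) and KO1 to KO4 (black). WT1, WT2 and WT4 climb toward long genes, KO1, KO2 and KO3 descend, WT3 descends in the longest class and KO4 is nearly flat.

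The neighbours of Grn were looked at apart. Within 10 Mb of Grn on chromosome 11, 287 other genes were tested and 4 passed (1.39%), against 68 of 15010 elsewhere (0.453%), with median fold changes of 0.00020 and 0.0047. The 4 were Adam11 at 0.331 Mb, Gfap at 0.457 Mb, Acbd4 at 0.671 Mb and Arhgap27os3 at 0.914 Mb, and all rose. Adam11, a non-catalytic membrane protein of synapses, was at 251 CPM in WT1, at 222, 217 and 187 CPM in WT2 to WT4 and at 285 to 313 CPM in KO (0.46; adjusted p = 0.0485). Acbd4, an acyl-CoA binding protein, was at 27.6 to 31.6 CPM in WT and 36.8 to 41.8 CPM in KO (0.39; adjusted p = 0.0338). Arhgap27os3 is an antisense gene, listed at 0 in WT1, WT2 and WT4 and at 0.0988 CPM in WT3, with 0.368 to 0.776 CPM in KO. Without a stated strand setting its reads cannot be told from those of the overlapping gene. Whether DNA around the targeted locus differs between the mouse lines was not tested.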

How the data were processed

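Total RNA of mouse cortex was made into directional libraries (NEBNext Ultra II Directional, per the labels' protocols). The deposited values are raw read counts per gene, whole numbers made by the authors. The submitters' processing notes name mm10, DESeq2 1.34.0 and R 4.1.2. Which aligner and counter were used, and with which strand setting, is not given in the sources used here. Gene symbols came from the file, and 26 that a spreadsheet had turned into dates were restored from their gene IDs with the RefSeq table. Genes were kept with edgeR's expression filter (at least 10 counts scaled to library size in a group's worth of libraries, and a total of 15), which left 15298 genes, and scaled by TMM. edgeR 4.0.16 (R 4.3.3) fitted group means and labelled sex over all 12 libraries with its quasi-likelihood test, and p-values were adjusted by Benjamini-Hochberg over all tested genes at 0.05. CPM are counts scaled to TMM-adjusted library sizes, and log2 CPM a prior count of 2. A second fit divided WT by labelled age. In no pair of libraries did the counts differ by as little as sampling noise (lowest chi-square per degree of freedom 3.73), so none was merged. Same-numbered libraries did not deviate together (correlations of -0.20 to 0.031), so replicate numbers were not used to pair samples.

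The gene lists and the rules for naming genes were chosen with earlier results of these data known. Named were Grn, the 15 called genes per direction with the smallest p and no overlap, and for each list its called genes, its first tested members and its highest and lowest members. Also named were the 10 genes per direction with the largest difference from both WT ages. Plcb1, Cnr1, Sorl1, Tnr, Ppp1r1b, Ttr and other genes outside that rule were chosen after their values were seen, as were the promoter motif and the genes beside Grn. Alternatives covered scaling, filters, tools (limma-voom from limma 3.58.1, DESeq2 1.42.0), model terms and each library left out. The script was tested on simulated data. Values of some genes are not reported here.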

Additional observations from a re-analysis of the deposited data

Results flagged for a closer look

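In 12 of 208 groups of 4 libraries 1 library stood apart from the other 3, with a gap past Dixon's critical value for 4 samples. Chance flags about 1 in 20 such groups, which is close to what was seen. Of these 11 are given here. Among genes they were Wdfy1 in KO3 (61.6 CPM, above the other KO libraries), Htr2a in WT1 (12.0 CPM, below the other WT libraries), Slc2a13 in WT1 (165 CPM, below), Rb1cc1 in KO1 (101 CPM, above) and Arhgap27os3 in WT3 (0.0988 CPM, the only WT library above 0). Among list levels these were choroid plexus markers in KO3 (3.25), border-associated macrophage markers in KO4 (-0.39), postsynaptic scaffolds in KO3 (-0.14), potassium channels in KO4 (-0.047), cytosolic ribosomal proteins in WT1 (0.0043) and circadian clock genes in WT1 (0.068).

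Htr2a also differed between the WT ages, by 1.248 on the log2 scale in edgeR's test (adjusted p = 0.0235), higher in each of the 3 libraries of 375 days than in the 1 of 287 days. Of the 73 called genes, Pcdh10 (0.46; adjusted p = 0.0371) and Fat3 (0.48; adjusted p = 0.0317) also passed in that contrast, both higher at 375 days. These are 3 of the 327 genes that passed among all tested. Of the other genes named in the report, Ppp1r1b (2.46), Scn4b (3.77), Cldn5 (0.90) and Kcna1 (0.56) were higher at 375 days and Tnr (-1.10) lower, with adjusted p-values of 0.0407, 0.0131, 0.0130, 0.0342 and 0.000179. The arm of 287 days is the single library WT1, assumed to vary like the other groups.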

How the results depend on the processing

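The 73 calls (22 higher, 51 lower) became 22 (11, 11) with library totals alone, 39 (10, 29) with no filter, 647 (198, 449) with DESeq2, 313 (100, 213) without the sex term, 2 (1, 1) with sex and age, 3 (1, 2) with WT and KO libraries only, 2 (0, 2) within labelled females, 1078 (488, 590) within labelled males, 9 (0, 9) under 310 days, 2 (1, 1) in libraries low in choroid plexus markers, 1 (0, 1) with the striatal level as a term and 11 (2, 9) with the length trend removed. Within labelled females and under 310 days WT1 was the only WT library, and within labelled males all WT libraries were 375 days old. Labelled sex and WT age therefore cannot be told apart in these fits. limma-voom gave 52 calls, 14 of them higher. RLE size factors, a 1 CPM filter and robust estimates (chosen after seeing the data, as was the choroid plexus setting for the WT of 375 days) gave 72, 71 and 75. The replicate numbers did not pair the samples, and a replicate block left 2 calls (0 higher, 2 lower), 874 against the WT of 375 days and 66 between WT ages. Leaving out 1 library gave 1 to 1635 calls, 0 to 755 higher and 1 to 880 lower, 579 to 1635 against the WT of 375 days, 2 to 5 against WT1 and 125 to 296 between WT ages. The 2 calls against WT1 became 7 with DESeq2 and 1 without the sex term, and the 327 between WT ages became 590 with DESeq2 and 207 with WT and KO libraries only. The cause of these changes was not tested. Grn stayed between -2.25 and -2.12 with 1 library left out. The 73 called genes kept their sign in every setting in which they had a value. Other genes did not: Cldn5, Kcna1, Scn4b and Ppp1r1b passed the test in some settings and took the opposite sign in others. The median of the striatal markers also changed sign between settings. Contrasts with WT1 could not be fitted without it.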
